A study of Mus musculus with 12 samples.

Results

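The read counts of 8 imprinted mouse genes, H19, Igf2, Dlk1, Meg3, Rian, Mirg, Peg3, and Grb10, were followed in C2C12GFP cells that had been cultured on different extracellular matrix (ECM) coatings. The genes were chosen by name, and they are 8 of the 55536 genes in the count table. All 8 were found in it by symbol, 5 had a count in at least 1 library, and 2, H19 and Peg3, had enough counts to be tested. C2C12 is an established line of mouse myoblasts that fuse into myotubes when serum is lowered, and the cells used here also express green fluorescent protein. The study asked how a substrate coating affects differentiation, and it sequenced RNA from 12 samples in 4 groups of 3, which were plates without a coating (control) and plates coated with Collagen I, with Fibronectin, or with Geltrex™, a reduced growth factor basement membrane matrix of laminin, Collagen IV, and entactin. All 4 groups received the same low-serum differentiation medium, carried no further treatment, and shared 1 cell line in culture without other tissue. The day of differentiation at which this RNA was taken is not given in the sources used here. Whether the 3 samples of a group were separate cultures is not stated either, so that p-values measure only the spread between these samples, which may be technical.

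An imprinted gene is read from the copy inherited from 1 parent, and neighboring imprinted genes are often switched together by a shared control region whose DNA methylation differs between the parental chromosomes. In the H19 and Igf2 cluster, the maternal chromosome produces H19, a long noncoding RNA, and the paternal chromosome produces Igf2, a secreted growth factor that cultured myoblasts are known to release during differentiation. In the Dlk1 and Meg3 cluster, the paternal copy produces Dlk1, a membrane protein related to the Notch ligands, whereas the maternal copy produces the noncoding RNAs Meg3, Rian, and Mirg, which carry small nucleolar RNAs and microRNAs. Peg3 is a paternally expressed zinc finger protein, and Grb10 is an adaptor that restrains the insulin and IGF1 receptors. Read counts do not tell the parental copies apart, so the values below are sums over both.

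The libraries held 22520404 to 27351766 counts. The myotube markers were present in every group, and their summed level was 7296 to 8207 CPM (read counts scaled to a common library size) in the control libraries, 7893 to 8101 on Collagen I, 2308 to 2706 on Fibronectin, and 3223 to 3505 on Geltrex™. All 10 myotube markers were lower on both Fibronectin and Geltrex™ than in the control group, with median log2 fold changes of -2.05 and -1.53, and all 8 markers of cycling cells were higher on both, with medians of 1.70 and 1.64. In bulk RNA, fewer cells of a type and less RNA per cell cannot be told apart. All 5 tested interferon-stimulated genes were higher on Geltrex™ than in each of the other groups, with a summed level over the list of 54.1 to 93.4 CPM against 4.07 to 4.88 CPM in the control group. Adipocyte markers summed to at most 0.431 CPM in any library.

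By their assigned counts, the 8 genes fell into a high and a near-absent set. H19 and Peg3 were abundant in each library, with 44346 to 103791 counts for H19 and 17544 to 26429 for Peg3. Igf2, Dlk1, and Meg3 had 0 counts in all 12 libraries. Rian had 6 counts in all, Mirg 3, and Grb10 53. A 0 over the 295737632 counts of the 12 libraries together allows a level of up to 0.0101 CPM, and a 0 in a single library allows 0.110 to 0.135 CPM, both for counting error only. Zeros were common in the whole table, as 22.5% of the 22028 protein-coding genes and 61.5% of the 5854 long intergenic noncoding RNAs had no count in any library.

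**Figure D1:**
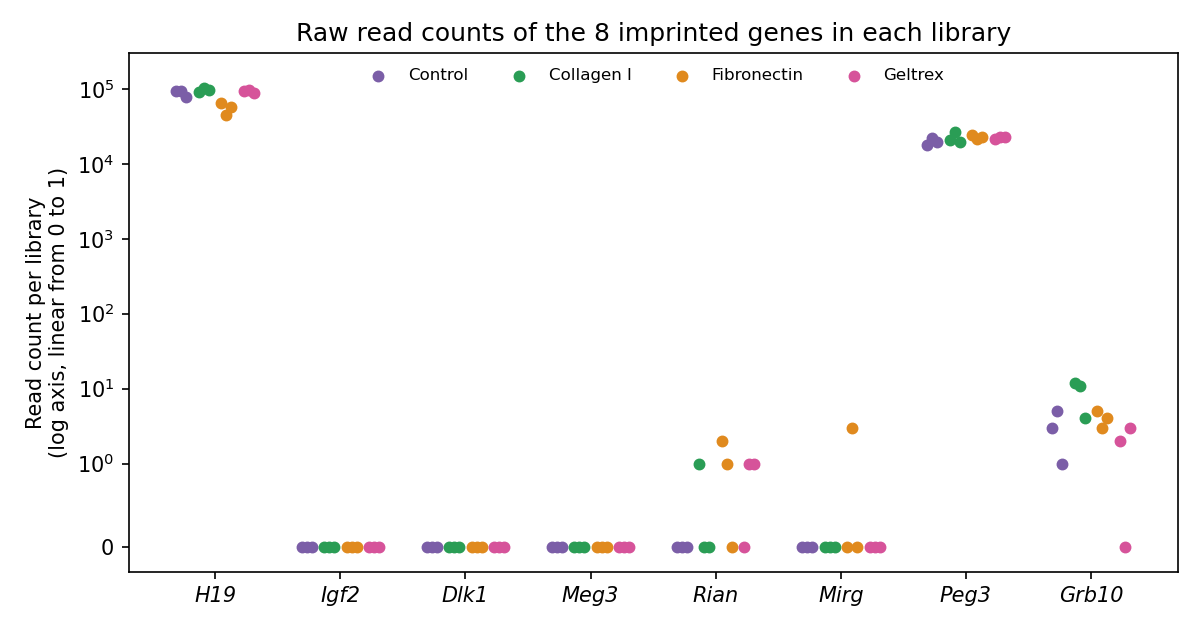
Raw read counts of the 8 imprinted genes (vertical axis, logarithmic above 1 and linear from 0 to 1), with 1 point for each of the 3 libraries in each of the 4 groups. H19 and Peg3 lie at 44346 to 103791 and 17544 to 26429 counts, Igf2, Dlk1, and Meg3 lie at 0 in every library, and Grb10 does not exceed 12.

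In the test of any difference among the 4 groups, both H19 and Peg3 passed, beside 53.3% of the 14499 genes tested. A gene was called at an adjusted p of at most 0.05 in edgeR's quasi-likelihood test. On Collagen I against the control, no member was called, and over all genes 0.2% were called higher and 0.917% lower; both members had an unadjusted p under 0.05, and DESeq2 called 0. On Fibronectin against the control, H19 was lower and no member was higher, where 14.7% of all genes were lower and 17.1% higher. On Geltrex™ against the control, Peg3 was higher and no member was lower, where 16.4% of all genes were higher and 16.6% lower. Between Collagen I and Fibronectin, H19 was higher on Collagen I and no member was lower, against 22.1% and 22.9% of all genes. Between Fibronectin and Geltrex™, H19 was lower on Fibronectin and no member was higher, against 9.05% and 10.3%. Between Collagen I and Geltrex™, no tested member was called in edgeR or DESeq2, none had an unadjusted p under 0.05, and the background was 18.2% higher and 19% lower.

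H19 was lower on Fibronectin than in each of the other 3 groups. It is a noncoding RNA of the minus strand at chr7:142575529-142578143 (GRCm38; ENSMUSG00000000031) with 2460 exon bases, and it is the host of miR-675, whose hairpin lies within an H19 exon. The RefSeq sequences of both mature miR-675 strands (GRCm38.p6, minus strand) are shown because they are the part of H19 with a known product, with the seed, bases 2 to 8, in capitals; they lie at chr7:142577112-142577133 (5p) and chr7:142577078-142577099 (3p).
mmu-miR-675-5p: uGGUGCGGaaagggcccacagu
mmu-miR-675-3p: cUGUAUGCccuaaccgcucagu
The seeds of the 5p and 3p strands differ from each other. The Mir675 gene itself received 0 counts in all 12 libraries, and it shares 3.41% of the H19 exon bases. These libraries do not measure mature microRNAs, so no level of miR-675 is given.

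H19 was the most abundant long intergenic noncoding RNA in these cells. With a mean of 3378 CPM it ranked 16 among all genes, and with 1373 CPM per kilobase of exon it also ranked 16. It took 0.180% to 0.416% of the counts of a library. In the control libraries H19 was at 3659, 3447, and 3262 CPM. On Collagen I it was at 3872, 3854, and 4185 CPM, and on Geltrex™ at 3989, 3912, and 3929 CPM. On Fibronectin it was at 2361, 1855, and 2208 CPM, so that the highest Fibronectin library lay below the lowest library of every other group. All 6 Collagen I and Geltrex™ libraries lay above the highest control library, but neither group was called against the control. How many of all genes separate in this way was not counted.

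**Figure D2:**
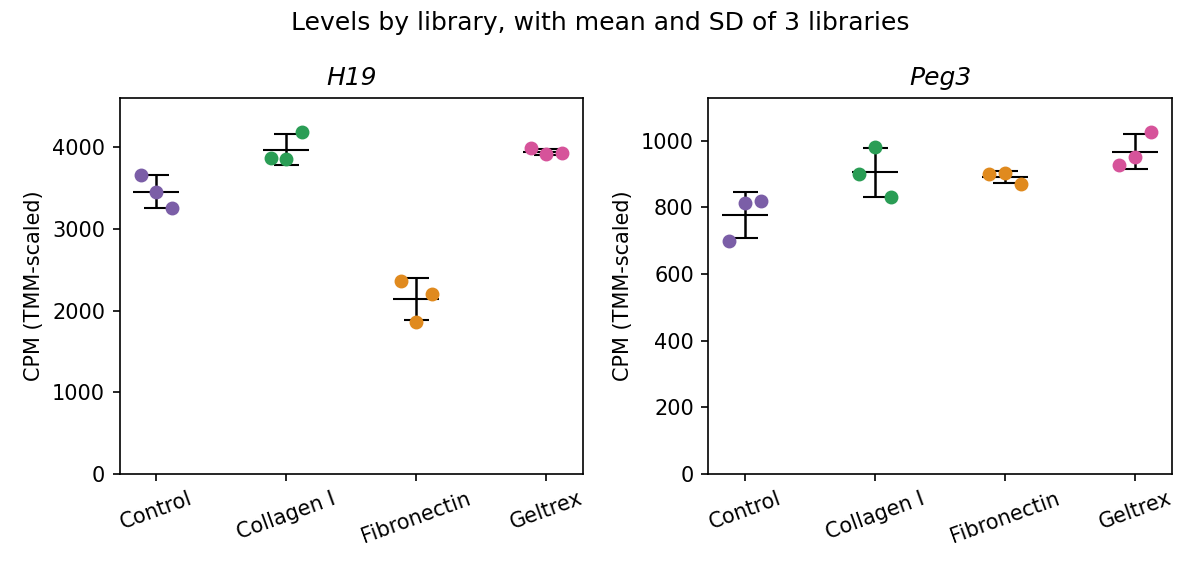
CPM of H19 (left) and Peg3 (right) in each library (points), scaled by the TMM (trimmed mean of M values) method, with the group mean (long bar) and SD (whiskers, n = 3); both vertical axes start at 0. The 3 Fibronectin libraries of H19 lie at 1855 to 2361 CPM, below all others, and the 3 Geltrex™ libraries of Peg3 lie at 926 to 1025 CPM, above the control libraries at 697 to 818.

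The mean H19 level was 2141 ± 259 CPM (SD, n = 3) on Fibronectin and 3456 ± 198 CPM in the control group, a 1.61-fold lower level (log2 fold change -0.69, SE 0.0935, adjusted p = 4.64e-05). Collagen I, at 3970 ± 186 CPM, was 1.85-fold higher than Fibronectin (adjusted p = 2.64e-06). Against Geltrex™, at 3943 ± 40.6 CPM, H19 was 1.84-fold lower on Fibronectin (adjusted p = 7.15e-06). The smaller differences among the remaining groups did not pass. Collagen I exceeded the control by a log2 fold change of 0.20 (95% interval 0.0024 to 0.40, adjusted p = 0.331), and Geltrex™ by 0.19 (-0.0074 to 0.39, adjusted p = 0.133). In descending order the means were Collagen I, Geltrex™, control, and Fibronectin, and the last step was the only one between neighbors in that order that passed the test. The libraries of Geltrex™ and the control did not overlap, although that step did not pass. Collagen I and Geltrex™ differed by 0.0099 on the log2 scale (-0.19 to 0.21, adjusted p = 0.944).

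H19 differed between Fibronectin and Geltrex™, whereas the myotube markers were lower on both. The 8 cycling markers gave no call between Fibronectin and Geltrex™ in edgeR or DESeq2, and 0 had an unadjusted p under 0.05. Of the 10 myotube markers, 6 were lower on Fibronectin than on Geltrex™, with a median log2 difference of -0.46 over the list beside -0.0049 over all genes. All 10 had an unadjusted p under 0.05 in edgeR, and DESeq2 called 7. The part of these markers in the H19 difference was not tested. Tnnt3, the fast skeletal troponin T gene, lies downstream of H19, beyond Nctc1 and Mrpl23. The ratio of H19 to Tnnt3 was 3.28 to 3.47 in the control libraries and 3.66 to 3.76 on Collagen I. Its lowest, median, and highest values were 8.63, 9.30, and 10.03 on Fibronectin and 12.03, 12.4, and 13.5 on Geltrex™, so that H19 was higher relative to Tnnt3 in every library of both coatings than in any library of the other groups.

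The genes within 150 kb of H19 were described next, after their values had been seen. The window touches 17 genes, of which 12 had a count and 9 were tested, H19 included. Tnnt3 and Tnni2, which encode fast skeletal troponin T and troponin I, are also in the myotube list. Tnni2 was at a mean of 496 ± 6.86 CPM in the control group, 538 ± 89.5 on Collagen I, 118 ± 6.61 on Fibronectin, and 164 ± 4.97 on Geltrex™ (SD, n = 3 each). Its log2 fold changes against the control were -2.07 on Fibronectin (adjusted p = 2.28e-09) and -1.59 on Geltrex™ (adjusted p = 1.25e-08). Tnnt3 was lower by similar amounts, with -2.15 and -1.70. Against the control, both troponin genes fell on both coatings, whereas H19 was called on Fibronectin alone. Like H19, both troponin genes were also called lower on Fibronectin than on Geltrex™. With each library left out in turn, that log2 difference was -0.52 to -0.44 for Tnni2 and -0.53 to -0.40 for Tnnt3. Neither call was lost.

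Nctc1, a noncoding transcript that starts downstream of H19 and is the tested gene nearest to it, was rare and, like the troponin genes, fell on both coatings. It was at 1.44 to 1.95 CPM in the control libraries and 1.77 to 2.12 on Collagen I. On Fibronectin it was at 0.209 to 0.445 CPM and on Geltrex™ at 0.299 to 0.721. Its log2 fold changes against the control were -2.47 on Fibronectin (SE 0.35, adjusted p = 7.10e-05) and -1.97 on Geltrex™ (SE 0.34, adjusted p = 3.01e-04). The difference of Nctc1 between Fibronectin and Geltrex™ did not pass (-0.51, adjusted p = 0.435). H19 was lower on Fibronectin than on Geltrex™ by 0.88, in the same direction. Nctc1 had only 5 to 12 counts per library on Fibronectin and 7 to 16 on Geltrex™. Whether the differences of Nctc1 and H19 were unlike was not tested.

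The other neighbors differed among themselves. Prr33 fell on Geltrex™ (-1.99, adjusted p = 5.20e-05) and not detectably on Fibronectin (-0.66, adjusted p = 0.0532), and it was higher on Fibronectin than on Geltrex™ by 1.32 (adjusted p = 0.00444). Prr33 overlaps Lsp1 and Tnnt3 in the annotation, and whether the counting used strand is not given. Mrpl23, a mitochondrial ribosomal protein gene, was lower on Fibronectin (-0.49, adjusted p = 0.0137), and its value on Geltrex™ was -0.32 (adjusted p = 0.0855). The Mrpl23 call was lost without control replicate 3 (-0.42, adjusted p = 0.0535) or Fibronectin replicate 1 (-0.41, adjusted p = 0.0728). Lsp1 did not pass on either coating, with -0.24 and -0.075. Syt8 passed on both, -1.43 (adjusted p = 0.0236) and -1.26 (adjusted p = 0.0399), at levels of 0.180 to 1.35 CPM. Syt8 lost its Fibronectin call without control replicate 1 or 2 or Fibronectin replicate 1 or 2, and its Geltrex™ call in 6 of the 12 fits that left out a library, with the highest adjusted p at 0.112 and 0.171. Ins2, on the far side of Igf2, did not pass against the control in any group.

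**Figure D3:**
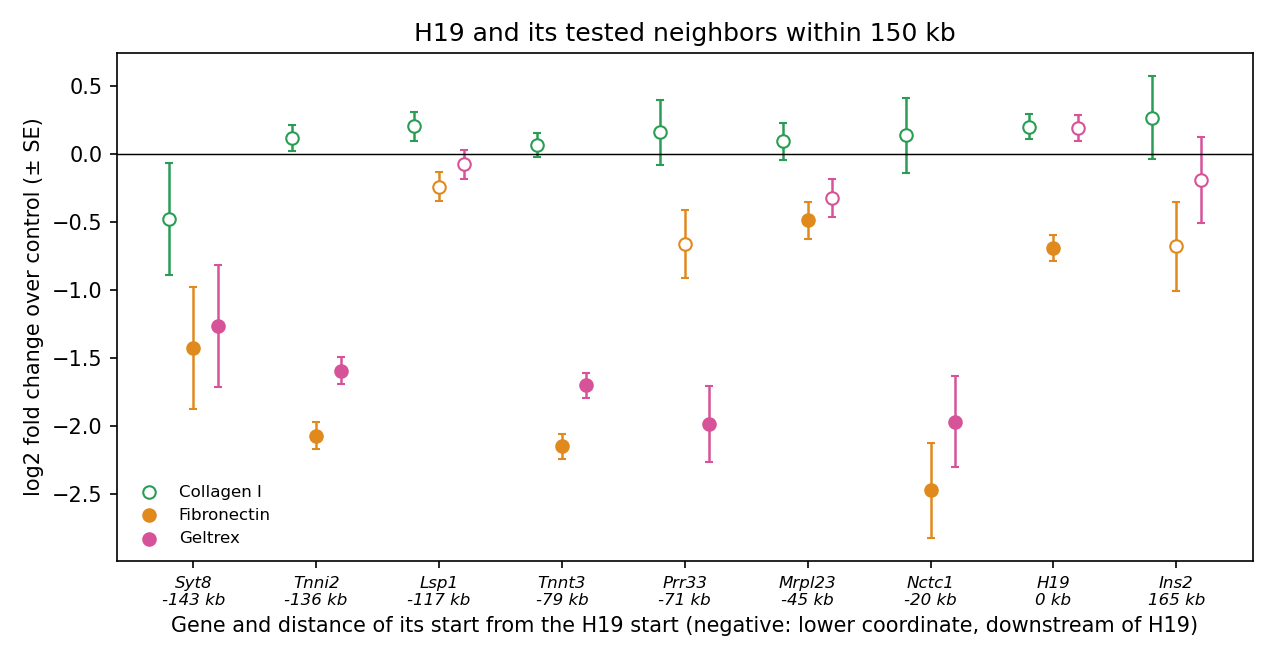
Log2 fold change over the control (vertical axis) of the 9 tested genes within 150 kb of H19, ordered by coordinate, for Collagen I, Fibronectin, and Geltrex™; bars are SE, filled points were called, and open points were not. H19 was called on Fibronectin alone (-0.69), whereas Tnni2, Tnnt3, and Nctc1 were called on both Fibronectin and Geltrex™ at -1.59 to -2.47.

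Igf2 had no count in any library. The gene lies upstream of H19, at chr7:142650766-142666816 on the minus strand of GRCm38, with 5723 exon bases. Of these, 62.8% are shared with Gm49394, a transcript of the same strand, and reads in a shared part can be left unassigned in gene counting. The remaining 37.2% of the exon bases are not shared with Gm49394 and received no count either. How the counting treated reads in shared exons is not given, so how much of Igf2 could be lost this way is unknown. Gm49394 had 3 counts over the 12 libraries, and Igf2os, an antisense transcript that shares 1.71% of the Igf2 exon bases, had 35. Ins2, the next gene upstream, was at a mean of 1.60 CPM. The ratio of Igf2 to H19 was 0 in every library, so that its logarithm was not defined, and it was not tested.

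Other components of the insulin-like growth factor pathway were well covered. Igf1, which encodes the ligand that signals through the same receptor, was at a mean of 344 ± 61.4 CPM in the control group, 254 ± 11.8 on Collagen I, 362 ± 31.2 on Fibronectin, and 240 ± 5.37 on Geltrex™ (SD, n = 3 each). Igf1 was lower on Geltrex™ than in the control group (log2 fold change -0.52, adjusted p = 0.00129) and higher on Fibronectin than on Geltrex™ (0.60, adjusted p = 9.24e-04). Igf1r, the signaling receptor, was at a mean of 133 CPM and rose on Geltrex™ (0.41, adjusted p = 0.00160). It also passed on Fibronectin (0.26, adjusted p = 0.0288), a call that was lost without control replicate 1 (0.22, adjusted p = 0.112) or 3 or without Fibronectin replicate 1 or 3. Igf2r, an imprinted receptor that removes IGF2 from the cell surface, was at 45.5 CPM and did not pass against the control on any coating. Igfbp5, the binding protein of highest level in this list, was at 4031 CPM and likewise did not pass against the control.

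Of the 21 pathway genes listed, 17 were tested. On Collagen I, 0 were called higher and 2 lower than the control, and these were Igfbp3 (-0.81) and Igfbp7 (-0.54). Both lost this call without control replicate 3 (-0.66, adjusted p = 0.101, and -0.45, adjusted p = 0.117) or Collagen I replicate 2 or 3, Igfbp3 also without control replicate 2, and Igfbp7 also without any 1 Geltrex™ replicate. On Fibronectin 4 were higher and 3 lower, against 17.1% and 14.7% of all genes, and on Geltrex™ 6 were higher and 3 lower, against 16.4% and 16.6%. The median log2 fold changes over the tested genes of the list were 0.12, 0.074, and 0.16, beside -0.0031, -0.016, and -0.012 over all genes. Among called genes with a mean of at least 1 CPM, the 4 with the largest difference in any comparison were Igfbp3, Igfbp4, Irs1, and Irs2. Igfbp3 was lower on Collagen I than on Geltrex™ by 1.38 on the log2 scale, with 11.6 to 17.6 CPM against 33.0 to 39.6 (adjusted p = 7.19e-06). Igfbp4 was lower on Geltrex™ than in the control group (-1.14, adjusted p = 2.11e-04), with 6.76 to 9.94 CPM against 16.9 to 21.3. Irs1 and Irs2, which link the insulin and IGF1 receptors to downstream kinases, were both higher on Geltrex™ than in the control group, with log2 fold changes of 1.12 (adjusted p = 1.81e-06) and 0.97 (adjusted p = 6.19e-07). Irs2 was at 34.0 to 34.3 CPM on Geltrex™ and 15.7 to 20.2 in the other 9 libraries.

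The named genes of the Dlk1 and Meg3 cluster had few or no counts in all 4 groups. Dlk1 (chr12:109452823-109463336, plus strand) and Meg3 (chr12:109541001-109571726, plus strand) had 0 counts over 5657 and 18089 exon bases. No other annotated gene shares exon bases with Dlk1, whereas Meg3 shares 8.29% of its exon bases with others. Rian (chr12:109603940-109661716, plus strand), the host of small nucleolar RNAs, had 1 count in Collagen I replicate 1, 2 and 1 in Fibronectin replicates 1 and 2, and 1 each in Geltrex™ replicates 2 and 3. Mirg (chr12:109729764-109749460, plus strand), a host of microRNAs, had 3 counts, all of them in Fibronectin replicate 2. None of these values passed the filter on low counts, and differences between groups were not detectable at this depth.

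Counts were also few over the whole domain. Between Dlk1 and Dio3, a span of 828 kb, the annotation lists 118 genes, many of them microRNAs and small nucleolar RNAs, and 7 had any count. These summed to 210 counts over the 12 libraries, of which 189 belonged to Gm3379, a processed pseudogene. Without it, 21 counts remained among the 295737632 of the series, including 3 for Rtl1 and 1 for Dio3, both protein-coding. Over the whole table, 47.2% of the 55536 genes had no count in any library. These libraries do not measure mature microRNAs, so zeros of the small RNA genes do not show whether those genes were silent. The ratios of Dlk1, Rian, and Mirg to Meg3 could not be formed, since Meg3 had no count.

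Peg3 was abundant in every group and higher on Geltrex™ than in the control. The gene lies on the minus strand at chr7:6703892-6730431 (GRCm38; ENSMUSG00000002265) and no other annotated gene shares its 13324 exon bases. Its mean of 885 CPM ranked 97 among all genes, and its 66.4 CPM per kilobase ranked 595, so that per length H19 stood far above it. Peg3 was at 697, 813, and 818 CPM in the control libraries. It was at 899, 981, and 832 CPM on Collagen I, 901, 901, and 871 on Fibronectin, and 926, 949, and 1025 on Geltrex™. Every coated library lay above every control library, and the Collagen I range overlapped those of both other coatings. How many of all genes separate in this way was not counted, and only the Geltrex™ difference from the control was called.

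The mean Peg3 level was 967 ± 51.8 CPM on Geltrex™ and 776 ± 68.5 CPM in the control group (SD, n = 3 each), a 1.25-fold difference (log2 fold change 0.32, SE 0.0869, 95% interval 0.13 to 0.50, adjusted p = 0.0106). This call was lost without control replicate 1, the lowest library (0.25, adjusted p = 0.0541), and without Geltrex™ replicate 3, the highest (0.27, adjusted p = 0.0598). Collagen I and Fibronectin exceeded the control by 0.22 (0.036 to 0.40, adjusted p = 0.250) and 0.20 (0.014 to 0.38, adjusted p = 0.0932), which did not pass. In descending order the Peg3 means were Geltrex™, Collagen I, Fibronectin, and control. No neighboring pair in that order passed the test, with Geltrex™ against Collagen I at an adjusted p of 0.402, Collagen I against Fibronectin at 0.862, and Fibronectin against the control at 0.0932, where the libraries did not overlap. Among the 4 groups the adjusted p was 0.0346, and it ranged from 0.0191 to 0.139 when each library was left out in turn.

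Peg3 and Usp29 start back to back. The 146 bases between their annotated starts, chr7:6730432-6730577 (GRCm38.p6, RefSeq sequence, minus strand, ending next to the Peg3 start), are shown because both genes are read outward from this stretch and their levels moved in different directions. The capitals mark each match to CCAAT on either strand, here as ATTGG.
Peg3 to Usp29: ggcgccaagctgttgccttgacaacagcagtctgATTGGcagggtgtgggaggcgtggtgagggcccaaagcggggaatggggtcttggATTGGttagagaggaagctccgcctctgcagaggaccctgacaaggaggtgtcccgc
The window held 2 matches to CCAAT, and in 146-base windows of the same length before 32851 RefSeq starts 24.3% held at least 1 and 5.85% at least 2. It held 0 matches to TGACGTCA and 0 to CANNTG, which occurred in 1.26% and 47% of those windows, all searched on both strands. A match is a description of the letters and not of a bound site.

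The neighbors of Peg3 went down on Geltrex™ while Peg3 went up. Usp29, a paternally expressed ubiquitin-specific protease gene, was at 12.1, 12.5, and 12.6 CPM in the control libraries and 14.4, 14.3, and 13.8 on Collagen I. It was at 12.3, 11.7, and 11.6 CPM on Fibronectin and 8.66, 8.85, and 9.82 on Geltrex™, where all 3 libraries lay below the other 9. The log2 fold change of Usp29 on Geltrex™ against the control was -0.45 (SE 0.097, adjusted p = 0.00203). Zim1, a maternally expressed zinc finger gene on the other side of Peg3, was at 160, 141, and 164 CPM in the control libraries and 109, 110, and 133 on Geltrex™. Its log2 fold change was -0.40 (SE 0.11, adjusted p = 0.00870), and the call was lost without Geltrex™ replicate 1 (-0.34, adjusted p = 0.0564) or 2 (-0.35, adjusted p = 0.0540). On Collagen I and Fibronectin, Zim1 and Usp29 did not differ detectably from the control.

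**Figure D4:**
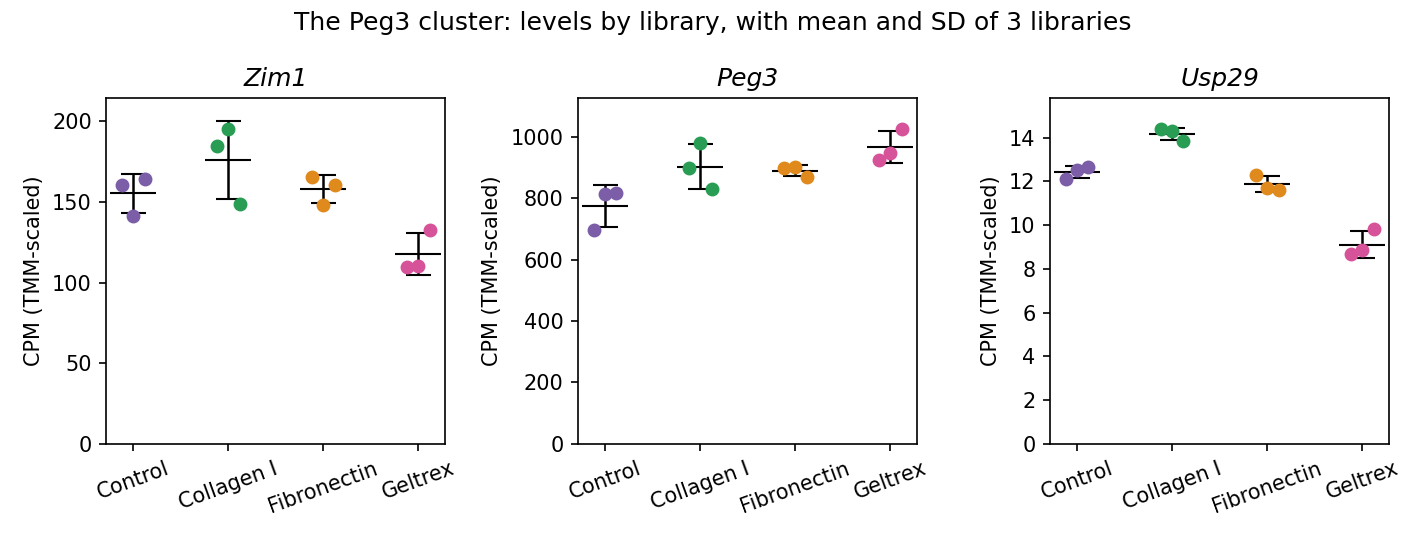
TMM-scaled CPM of Zim1, Peg3, and Usp29 in each library (points), with the group mean (long bar) and SD (whiskers, n = 3); each vertical axis starts at 0 and has its own scale. On Geltrex™, Usp29 lies at 8.66 to 9.82 CPM and Zim1 at 109 to 133, below the other groups, while Peg3 lies at 926 to 1025, above the control.

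Within single libraries, the ratio of Peg3 counts to Usp29 counts was 57.4 to 64.8 in the control group and 60.1 to 68.6 on Collagen I. It was 73.2 to 76.8 on Fibronectin and 104 to 107 on Geltrex™, and neither range overlapped another group's. The ratio of Peg3 to Zim1 was 4.35 to 5.76 in the control group, 4.87 to 5.59 on Collagen I, 5.43 to 6.09 on Fibronectin, and 7.72 to 8.59 on Geltrex™. These ratios were formed after the values had been seen and carry no test, and they do not depend on library scaling. The direct comparisons of the groups gave lower Usp29 on Geltrex™ than on Collagen I by 0.64 (adjusted p = 9.80e-05) and than on Fibronectin by 0.38 (adjusted p = 0.0114), and lower Zim1 by 0.58 (adjusted p = 5.33e-04) and 0.43 (adjusted p = 0.0104). Both calls between Fibronectin and Geltrex™ were lost without Geltrex™ replicate 1 (Usp29 0.34, adjusted p = 0.0664; Zim1 0.37, adjusted p = 0.0657) or replicate 2 (0.36 and 0.0569; 0.38 and 0.0622). The interferon-stimulated genes moved with the same libraries. The reserve or satellite cell markers summed to 334 to 372 CPM in the control group and 283 to 305 on Collagen I. That sum was 400 to 461 CPM on Fibronectin and 520 to 541 on Geltrex™, and most of it was Sdc4. Of the 6 markers, 3 were higher and 1 lower on Geltrex™ than in the control group, and mean Heyl was 9.97 against 17.1 CPM. The fibroblast sum was lowest on Geltrex™. Of its 4 tested markers, 2 were called lower there than in the control group, while mean Pdgfra was 42.9 against 38.3 CPM. The part of these genes in the Peg3, Zim1, and Usp29 differences was not tested.

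Grb10 was barely detected. The gene lies at chr11:11930508-12038683 on the minus strand with 9089 exon bases, none of them shared with another gene. It had 3, 5, and 1 counts in the control libraries, 12, 11, and 4 on Collagen I, 5, 3, and 4 on Fibronectin, and 2, 0, and 3 on Geltrex™. Its mean over all libraries was 0.178 CPM, and it did not pass the filter on low counts. When that filter was dropped, Grb10 was higher on Collagen I than on Geltrex™ by 2.27 on the log2 scale (adjusted p = 0.0377 over 29301 genes), where 9.28% of all genes were called higher, and it was called in no other comparison. The other adaptor genes of its family were low as well, with 405 counts in all for Grb14 and 3 for Grb7.

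Ddc, the imprinted neighbor of Grb10 that encodes the enzyme aromatic L-amino acid decarboxylase, was expressed at a low level and had the pattern closest to H19. Over the 12 libraries, the Pearson correlation of log2 CPM with H19 was 0.967 for Ddc, 0.963 for Acin1, and 0.960 for Adamts7, the 3 highest of 12317 genes. These values describe 12 points that fall into 4 groups and share their library scaling. Ddc had 44, 45, and 37 counts in the control libraries, 54, 46, and 51 on Collagen I, 17, 10, and 20 on Fibronectin, and 42, 44, and 35 on Geltrex™. As for H19, the 3 Fibronectin libraries lay below all others. That likeness follows from the correlation by which Ddc was found nearest to H19, so it and the differences below are no separate support. The log2 fold change of Ddc on Fibronectin against the control was -1.43 (SE 0.26, adjusted p = 6.86e-04), and it was lower on Fibronectin than on Geltrex™ by 1.49 (adjusted p = 8.02e-04). For Peg3, the 3 genes of highest correlation were Heatr5b (0.942), Srbd1 (0.934), and Wdr19 (0.913), measured over the same 12 libraries.

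Among 36 other imprinted genes, 21 were tested, and Phlda2, Magel2, Ascl2, and Tfpi2 had no count in any library. On Collagen I none of the 21 was called against the control in edgeR or DESeq2, and 1 had an unadjusted p under 0.05. On Fibronectin 2 were higher, Peg10 and Copg2, and 2 were lower, Ddc and Dcn, against 17.1% and 14.7% of all genes. On Geltrex™ 1 was higher, Copg2, and 5 were lower, Dcn, Blcap, Usp29, Zim1, and Zrsr1, against 16.4% and 16.6% of all genes. The weakest of these, Dcn on Fibronectin (-0.27) and Zrsr1 on Geltrex™ (-0.21), were lost without control replicate 3 (-0.15, adjusted p = 0.216, and -0.14, adjusted p = 0.217) and without most of the other libraries in turn. The median log2 fold changes over the tested genes of the list were 0.092, -0.097, and -0.11, beside -0.0031, -0.016, and -0.012 over all genes. Dcn, which encodes the matrix proteoglycan decorin and is imprinted in placenta, was the most abundant of them at 1753 CPM. Its level was 2008 ± 281 CPM in the control group and 1315 ± 23.5 on Geltrex™ (SD, n = 3 each; log2 fold change -0.61, adjusted p = 1.49e-04). The fibroblast markers summed to 114 to 151 CPM in the control group and 100.4 to 133 on Collagen I. Their sum was 81.6 to 109 CPM on Fibronectin and 64.9 to 67.4 on Geltrex™. The list was split, as mean Lum was 90.4 CPM in the control group and 19.2 on Geltrex™, and mean Pdgfra 38.3 and 42.9. The part of these markers in the Dcn difference was not tested.

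The coatings were then compared with each other over the same 21 genes. Compared with Fibronectin, 6 were higher and 1 lower on Collagen I, where 22.1% and 22.9% of all genes were called. Of the 6, Usp29, Airn, Dcn, and Ins2 lost this call under other settings or with a library left out. Dcn lost it without Collagen I replicate 1 (0.25, adjusted p = 0.0839) or Fibronectin replicate 1 (adjusted p = 0.0986) or 2 (adjusted p = 0.0790). Compared with Geltrex™, 7 were higher and 3 lower, where 18.2% and 19% of all genes were called. Among these, Zrsr1 lost its call without the low-count filter (adjusted p = 0.0862). With a library left out, Zrsr1 lost it in 4 of the 12 fits and Peg10 in 3. The medians of the list were 0.16 and 0.23, beside 0.022 and 0.026 over all genes. Both comparisons share the Collagen I libraries. Between Fibronectin and Geltrex™, 4 were higher and 1 lower, against 10.3% and 9.05% of all genes, with a median of -0.0066 beside -0.0049. Of the 4, Zim1, Usp29, and Dcn lost this call with a library left out. Dcn lost it without Fibronectin replicate 3 (0.27, adjusted p = 0.0723) or any 1 Geltrex™ replicate. The largest called differences after Ddc were in noncoding RNAs and Ins2. Kcnq1ot1 was higher on Collagen I than on Geltrex™ by 1.35 (adjusted p = 0.0189), with 7.98 to 18.4 CPM against 4.27 to 5.23, and its control libraries spread from 3.23 to 16.2. Airn, the antisense RNA of the Igf2r domain, was higher on Collagen I than on Geltrex™ by 0.69 (adjusted p = 0.00888), with 6.81 to 7.40 CPM against 3.66 to 5.50. Ins2 exceeded its Fibronectin level on Collagen I by 0.94 (adjusted p = 0.0260), at 1.82 to 2.46 CPM against 0.544 to 1.71. Kcnq1ot1 lost its call without Collagen I replicate 3 (0.93, adjusted p = 0.109) or Geltrex™ replicate 1 or 2, Airn without Geltrex™ replicate 2 (0.56, adjusted p = 0.0536), and Ins2 without Fibronectin replicate 2 (0.64, adjusted p = 0.112) or 1 or Collagen I replicate 3.

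**Figure D5:**
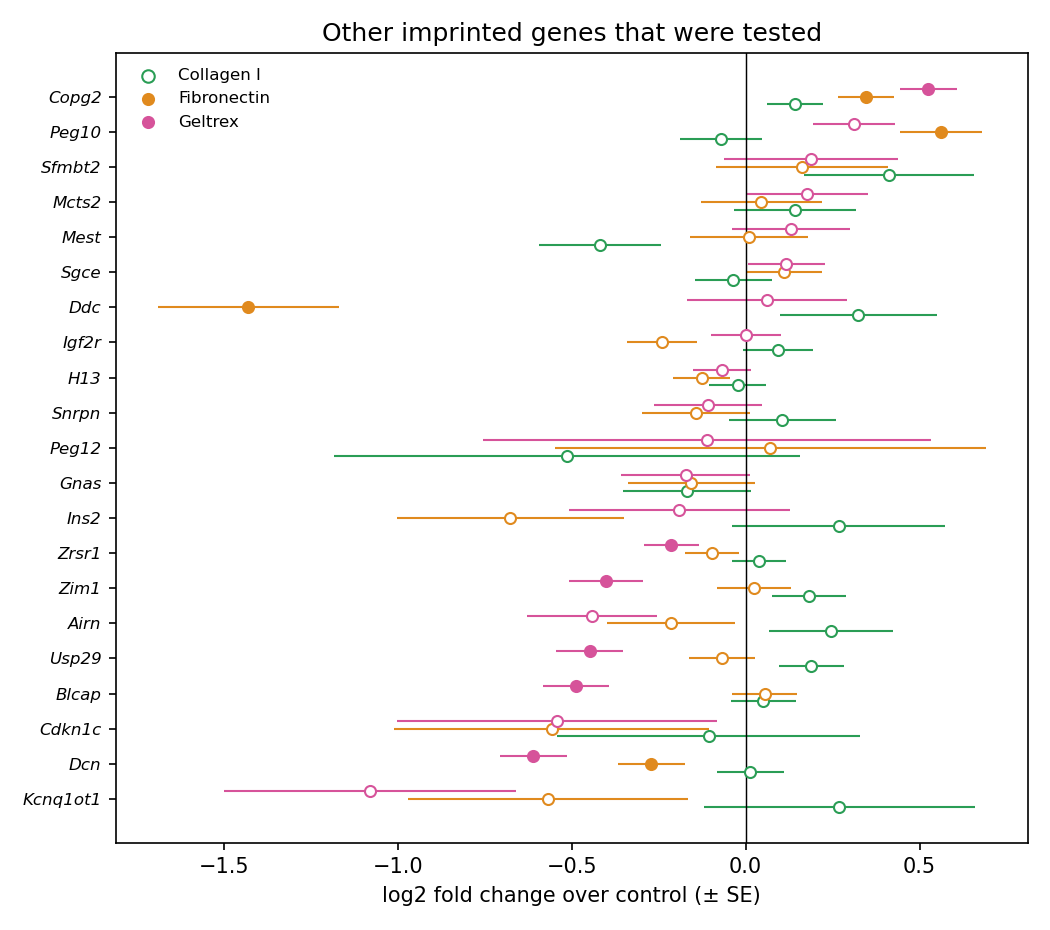
Log2 fold change over the control (horizontal axis) of the 21 tested genes of the list of other imprinted genes, for Collagen I, Fibronectin, and Geltrex™; bars are SE, filled points were called, and open points were not. No point of Collagen I is filled, Ddc stands out on Fibronectin at -1.43, and Copg2 is filled to the right of 0 on both Fibronectin and Geltrex™.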

How the data were processed

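RNA of 12 samples, 3 in each of 4 groups taken from the sample labels, was sequenced as paired reads. The authors used Trimmomatic for trimming, HISAT2 for alignment, and featureCounts for quantification, and deposited unscaled read counts per gene; the versions, build, annotation, and strand setting are not given in the sources used here. Every column belonged to a labelled sample. All 55536 identifiers were in GENCODE M21 (GRCm38), which gave symbols, positions, and exon lengths.

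Counts were analyzed in R 4.3.3 with edgeR 4.0.16. Genes were kept by filterByExpr (minimum count 10, minimum total 15), which left 14499, TMM scaling was applied, and a single quasi-likelihood model of the 4 groups (8 residual degrees of freedom) was tested two-sided, with Benjamini-Hochberg adjustment over all genes tested. A gene was called at an adjusted p of at most 0.05. SE is the log2 fold change divided by the square root of F. CPM are TMM-scaled, and a limit for a 0 is 3 counts. On simulated counts of the Fibronectin and control comparison, 90.5% of 200 genes changed 2-fold were called, and 6 of 187 calls were false. The changed genes had a mean of at least 1 CPM. Smaller differences, such as those of H19 and Peg3, and changes in rarer genes were not simulated.

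The members and gene lists were chosen with earlier results of these data known. Named genes were all 8 members, the 3 genes nearest in pattern to each member of at least 1 CPM, and, from the 2 lists of other imprinted and growth factor pathway genes, the 4 called genes with the largest log2 fold change and a mean of at least 1 CPM. Other genes were named after their values were seen. Alternatives were DESeq2 1.42.0, RLE scaling, other filters, a replicate block, only the 2 groups compared, a 2-fold minimum, and leaving out each library. Depth was 22520404 to 27351766 counts per library. No pair of libraries agreed within sampling noise (chi-square per degree of freedom of at least 2.18). Osteoblast and endothelial markers were also summed. In the control, Collagen I, Fibronectin, and Geltrex™ groups, the median sums were 3.82, 4.20, 4.42, and 6.27 CPM for osteoblast markers and 2.33, 1.72, 2.93, and 1.11 CPM for endothelial markers. Most of each sum was 1 gene, Dmp1 (mean 4.51 CPM) and Tek (mean 1.84 CPM), the only tested gene of its list.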

Additional observations from a re-analysis of the deposited data

How the results depend on the processing

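The H19 calls (lower on Fibronectin than in the other 3 groups, and any difference) were kept with DESeq2, RLE scaling, both other filters, the replicate block, only the 2 groups compared, and each library left out; the log2 fold change on Fibronectin against the control stayed within -0.76 to -0.60. With a minimum fold of 2, the number of members called fell from 1 to 0 on Fibronectin and on Geltrex™ against the control, between Collagen I and Fibronectin, and between Fibronectin and Geltrex™. Without the low-count filter, and when a library was left out, Grb10 could be tested, which changed the number called between Collagen I and Geltrex™ from 0 to 1 without the filter and to a range of 0 to 1 across the left-out libraries. Grb10 reached the minimum count of 10 only in Collagen I replicates 1 and 2, with 12 and 11 counts. In the fits that left out a library it therefore passed the filter only through the group where it was high. Any call of Grb10 in those fits is no support for a difference. Leaving out libraries gave 0 to 1 members called on Geltrex™ against the control and 1 to 3 for any difference among the 4 groups, with Peg3 as the call that was lost. The uncalled differences of H19 between Collagen I and Geltrex™ (-0.0300 to 0.0251) and of Peg3 between Collagen I and Fibronectin (-0.0449 to 0.0824) changed sign with the library left out. Cause was not tested in any of these.

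Over all genes, the calls of Collagen I against the control numbered 162 in edgeR, 485 in DESeq2, 581 without the filter, 39 with only those groups fitted, and as few as 44 with a library left out; those of Fibronectin against Geltrex™ numbered 2803 and as few as 1717. Usp29 between Collagen I and Fibronectin (0.26, adjusted p = 0.0371) lost its call with DESeq2 (0.0531), without the filter (0.210), with the replicate block (0.0559), with only those groups fitted (0.0909), and in 7 of the 12 fits that left out a library; between Fibronectin and Geltrex™ it also lost its call without the filter (0.0513). Airn between Collagen I and Fibronectin lost its call with RLE scaling (adjusted p = 0.0553) and in 9 of those 12 fits. Zrsr1 on Geltrex™ against the control lost its call with RLE scaling (0.0537), without the filter (0.201), with the replicate block (0.0682), and with only those groups fitted (0.0583). With only the groups compared in the fit, the calls of Igfbp3 (0.0818) and Igfbp7 (0.0837) on Collagen I and of Igf1r (0.0529) and Dcn (0.0923) on Fibronectin against the control were lost too.

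Same-numbered samples did not deviate together (correlations of -0.154 to 0.225, with no comparison in which all 3 exceeded 0.1), so the numbers were not taken as pairs. With the replicate block, the number of members called was 1 on Fibronectin against the control, as in the fit without it, and no member's call changed. The ratios of Igf2 to H19, and of Dlk1, Rian, and Mirg to Meg3, and their alternatives were not run, since 1 gene of each pair had 0 counts in every library.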
